A study of Oryza sativa with 8 samples.

Results

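The nuclear genes of the photosynthetic light reactions were followed in leaves and roots of rice, with and without salt. They were chosen as a fixed list of 36 gene identifiers, out of 55797 genes measured. The list goes by function and was drawn up with earlier results of these data known. The list holds 14 light-harvesting genes (Lhca and Lhcb), 2 genes for PsbS, 4 for photosystem II subunits (psbO, psbP, psbQ and psbR), 9 for photosystem I subunits (psaD to psaO), 5 for electron carriers (plastocyanin, the Rieske protein, ferredoxin and ferredoxin-NADP reductase) and 2 for plastid ATP synthase subunits. No deposited file pairs these identifiers with names, and 0 of the 36 were found in the reference gene table. The classes are those under which the identifiers were listed, taken in the order of the list, and within a class no identifier is assigned to a single protein.

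Light-harvesting proteins bind chlorophyll and pass excitation energy to the photosystems. PsbS senses acidification of the thylakoid lumen and is needed for the rapid dissipation of excess light energy as heat. Photosystem II splits water, the Rieske protein and plastocyanin carry electrons to photosystem I, ferredoxin and its reductase deliver them to NADP+, and the ATP synthase uses the proton gradient. All these proteins work in chloroplasts, which roots of most plants lack or hold in undeveloped form.

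Seedlings of the cultivar Nipponbare were grown in liquid culture for 2 weeks. The groups are leaf salt, leaf control, root salt and root control, with 2 libraries each. Salt plants received 150 mmol NaCl, an amount the labels give without a volume, and control plants continued without it, both being collected after 24 hours. Groups follow the titles, since the tissue fields read seedling for leaf and shoot for root, and the labels' protocols call the replicates biological without naming separate cultures, so p-values measure the spread between these libraries.

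Values are FPKM (fragments scaled to transcript length and to the mapped fragments of the library), so levels of different genes are compared per length. Depth is not given. In root libraries the confidence bounds of the FPKM imply a median of 94.6 fragments per member and library, so root values rest on few fragments. In leaf libraries the bounds of many members level off whatever their FPKM, and no number of fragments is drawn from them. Changes are differences of log2(FPKM + 1) from limma fitted to all 8 libraries over 23776 genes that reached 1 FPKM in no fewer than 2 of them. The words rose and fell, and the word called, are kept for changes with an adjusted p under 0.05, by the Benjamini-Hochberg method over these genes. Of the 36 members, 35 passed the filter.

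The labels were checked on other lists of identifiers, assigned from general knowledge of rice, not annotated in the files, and also picked with earlier results known. The 4 identifiers of the Rubisco small subunit and Rubisco activase had 783 to 9046 FPKM in leaf salt and 1132 to 14345 in leaf control libraries, against 2.56 to 21.1 in root salt and 1.56 to 104 in root control libraries. The 4 root markers had 0.0186 to 5.26 FPKM in leaf salt and 0 to 10.002 in leaf control libraries, against 2.70 to 576 in root salt and 11.3 to 1688 in root control libraries. All 3 salt markers rose with salt in leaf and in root. In bulk tissue, fewer cells of a type and less RNA per cell cannot be told apart.

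**Figure D1:**
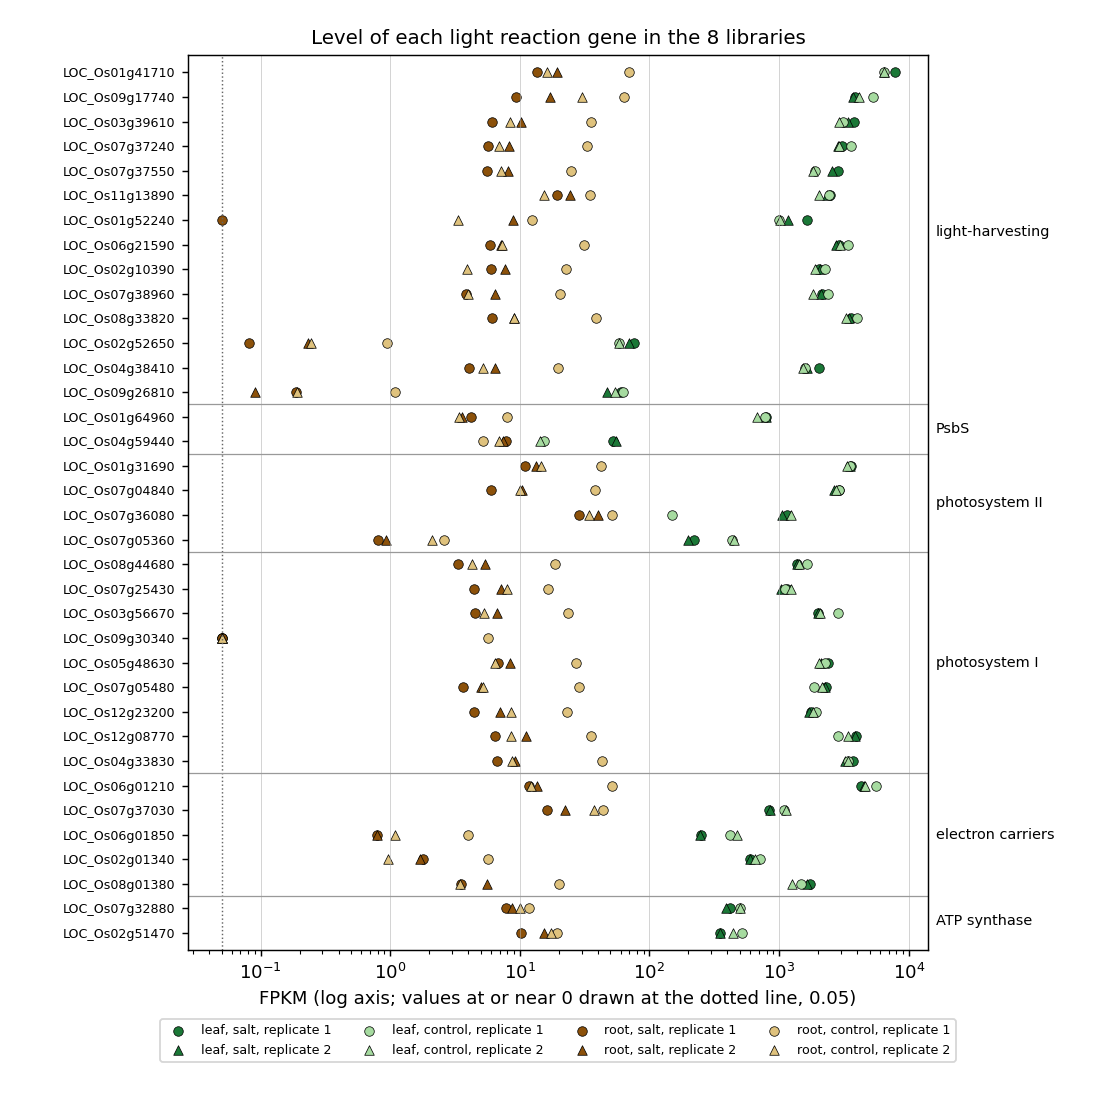
FPKM of each of the 36 genes (rows, grouped by class) on a log axis, with 1 symbol per library: dark and light green for leaf salt and leaf control, dark and light brown for root salt and root control, circles for replicate 1 and triangles for replicate 2. The leaf symbols stand to the right of the root symbols in 35 rows, root control replicate 1 stands to the right of the other root libraries in most, and LOC_Os09g30340 lies at or near 0 in 7 libraries.

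Light reaction genes were among the most abundant transcripts of the leaf. The 36 genes made up 10.7% and 9.92% of all FPKM in leaf salt libraries, and 10.6% and 9.54% in leaf control libraries. In leaf controls 28 of them were among the 100 genes with the highest mean, and 25 averaged at least 1000 FPKM. Light-harvesting genes alone accounted for 51.7% and 50.2% of the members' summed FPKM in leaf salt libraries and 51.1% and 48.4% in leaf control libraries. Photosystem I genes held 25.2% and 25.4% with salt and 24.2% and 25.8% without. The electron carriers held 10.4% and 11.3% with salt, against 12.66% and 12.04% in controls. PsbS and ATP synthase genes each made up between 1.03% and 1.39% in every leaf library.

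Levels within a class ranged widely. Among light-harvesting genes LOC_Os01g41710 (chromosome 1, 23607348 to 23608583, in the coordinates of the deposited files, whose build is not given) was highest, with 7774 and 6432 FPKM in leaf salt and 6489 and 6430 FPKM in leaf control libraries. It reached rank 3 among all genes of a library. At the other end LOC_Os09g26810 had 60.3 and 47.2 FPKM in leaf salt and 62.3 and 53.8 FPKM in leaf control libraries. LOC_Os02g52650 was as low, with 76.2 and 69.1 FPKM with salt and 58.7 and 58.6 FPKM without. The other 11 light-harvesting genes averaged between 1009 and 4741 FPKM in leaf controls, so 2 antenna genes were far lower than the other 12.

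The 8 photosystem I genes with values were closer together. LOC_Os04g33830 was highest in leaf controls, with 3697 and 3220 FPKM in leaf salt and 3393 and 3377 FPKM in leaf control libraries. LOC_Os07g25430 was lowest, with 1155 and 1030 FPKM in leaf salt and 1107 and 1230 FPKM in leaf control libraries. The ninth identifier, LOC_Os09g30340, was listed at 0 in all 4 leaf libraries, was at or near 0 in both root salt libraries and in root control replicate 2, and had 5.66 FPKM in root control replicate 1. A zero in these files can be a failed estimate, so its absence from leaf is not shown, and it was not tested.

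In leaves, the summed level of the light-harvesting, photosystem II and photosystem I genes overlapped between salt and control libraries, while that of the other 3 classes did not. Over all 36 genes the sum was 71497 ± 3494 FPKM in leaf salt and 70728 ± 4128 FPKM in leaf control libraries (SD, n = 2 each), a ratio of 1.01. The ratio of salt over control was 1.03 for light-harvesting genes, 1.03 for photosystem II and 1.02 for photosystem I. In each of these classes the salt and control libraries overlapped, and the direction of the ratio changed over the libraries left out. The photosystem II sum holds LOC_Os07g36080, whose low value in leaf control replicate 1 is described below. ATP synthase genes summed to 767 and 739 FPKM in leaf salt libraries, against 1014 and 943 FPKM in leaf control libraries, a ratio of 0.769. Electron carriers had a ratio of 0.886 and PsbS genes 1.14, both without overlap between salt and control libraries. With 2 against 2 libraries no exact two-sided permutation test can go below 0.333, so these sums are a description.

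**Figure D2:**
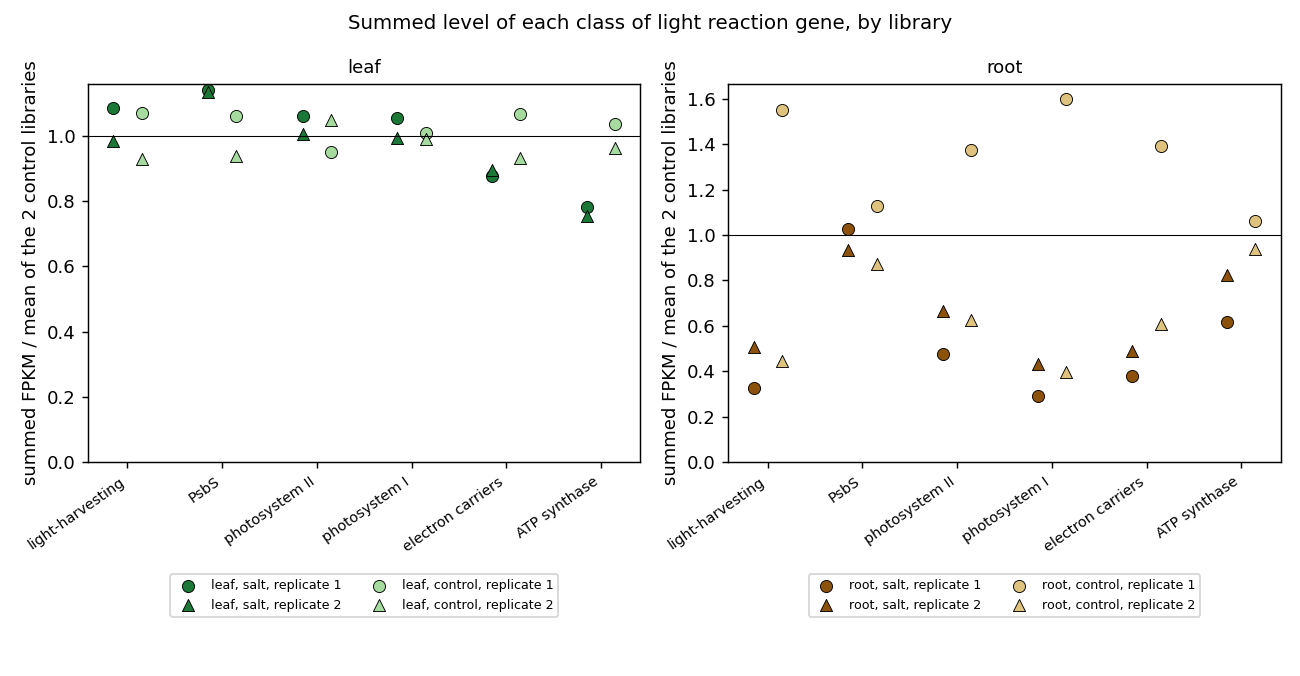
Summed FPKM of each class in each library, divided by the mean of the 2 control libraries of the same tissue (left, leaf; right, root), with salt libraries left of control libraries and circles and triangles for replicates 1 and 2. In leaf the ATP synthase sum of both salt libraries lies below both controls, at a ratio of means of 0.769, and in root the 2 control libraries lie far apart for every class except PsbS and ATP synthase.

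Gene by gene, 1 member rose and 1 fell in salt-treated leaves, while 33 were not called. These are 2.86% of the 35 tested members in each direction, where 14.8% of all tested genes rose and 18.9% fell, 33.8% together. The median change over the members was -0.01 on the log2 scale, against -0.05 over all tested genes. The members' changes carried large errors, with a median SE of 0.534, where the median over all genes was 0.148. The shared estimate of the spread includes the root controls, whose replicates differed for these genes as described below. With the 4 leaf libraries alone the members' median SE was 0.226, where the median over all genes was 0.114. In that fit 1 member rose and 2 fell, where 13.2% of all genes rose and 16.9% fell, 30% together. On the linear scale, 31 of the 35 genes had salt means within 1.5-fold of their control means. No share over all genes is given for this count, so it describes the members only.

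The gene that rose was LOC_Os04g59440 (chromosome 4, 35337067 to 35338192), 1 of the 2 PsbS genes. It had 52.3 and 55.2 FPKM in leaf salt libraries, against 15.5 and 14.3 FPKM in leaf control libraries. Both salt libraries were well above both controls, and the ratio of means was 3.61. The log2 change was 1.78 ± 0.127 (SE, limma adjusted p = 0.000166), and the call was kept in every alternative tried. The other PsbS gene, LOC_Os01g64960, was far more abundant, with 795 and 787 FPKM in leaf salt and 773 and 681 FPKM in leaf control libraries. Its salt libraries were also above its controls, but by little, with a change of 0.12 ± 0.300 (SE, limma adjusted p = 0.806). LOC_Os04g59440 thus made up a small part of PsbS transcript in leaf under both conditions, although its own level was several-fold higher with salt.

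The gene that fell was LOC_Os07g05360 (chromosome 7, 2453960 to 2456611), the least abundant of the 4 photosystem II genes. It had 220 and 198 FPKM in leaf salt libraries, against 433 and 446 FPKM in leaf control libraries. The groups were clearly apart, at a ratio of 0.476. The log2 change was -1.07 ± 0.105 (SE, limma adjusted p = 0.000530). LOC_Os01g31690, the most abundant of the class, had 3596 and 3503 FPKM with salt and 3537 and 3319 FPKM without, and LOC_Os07g04840 had 2876 and 2651 FPKM with salt and 2889 and 2742 FPKM without. For both, salt and control libraries overlapped. LOC_Os07g36080 had 1144 and 1062 FPKM in leaf salt libraries, with 150 FPKM in leaf control replicate 1 and 1229 FPKM in leaf control replicate 2. Its control replicates differed more than those of any other member, and its change of 1.35 ± 0.851 (SE, limma adjusted p = 0.274) turned to -0.16 (limma adjusted p = 0.762) without leaf control replicate 1, a fit in which 10.2% of all genes rose and 12.2% fell, 22.4% together. The cause of the low value was not tested.

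Among electron carriers, 4 of 5 genes had both salt libraries below both controls in leaf, as had 40% of all tested genes, and none was called in the fit of all libraries. The largest difference was in LOC_Os06g01850 (chromosome 6, 479178 to 481669), with 248 and 247 FPKM in leaf salt libraries, against 422 and 474 FPKM in leaf control libraries. Its log2 change of -0.85 had an SE of 0.354 in the fit of all 8 libraries (limma adjusted p = 0.112) and of 0.0895 in the fit of the leaf libraries (limma adjusted p = 0.0135). It thus passed the threshold with leaf libraries alone, and also without root control replicate 1 (limma adjusted p = 0.00141). LOC_Os07g37030 had 835 and 846 FPKM with salt, against 1090 and 1135 FPKM in controls, a change of -0.40 ± 0.154 (SE, limma adjusted p = 0.0888).

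The most abundant carrier gene, LOC_Os06g01210, had 4261 and 4497 FPKM in leaf salt libraries, against 5622 and 4635 FPKM in leaf control libraries. Its salt values lay below, but its control replicates were further apart than the groups. LOC_Os02g01340 had 598 and 599 FPKM with salt, against 714 and 653 FPKM without. LOC_Os08g01380 was the exception in the class, with 1718 and 1644 FPKM in leaf salt and 1480 and 1269 FPKM in leaf control libraries, a change of 0.29 that was not called.

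Both ATP synthase genes were lower in each salt-treated leaf library than in either control. LOC_Os07g32880 had 418 and 389 FPKM with salt, against 500 and 499 FPKM without, a change of -0.31 ± 0.103 (SE, limma adjusted p = 0.0590). LOC_Os02g51470 had 349 and 351 FPKM with salt, against 514 and 444 FPKM without, a change of -0.45 ± 0.176 (SE, limma adjusted p = 0.0961). Neither passed the threshold. Without root control replicate 1, LOC_Os07g32880 did (limma adjusted p = 0.0451). In that fit 1 member rose and 3 fell in leaf, the same counts as without root control replicate 2, where in both fits 14.8% of all genes rose and 18.7% fell, 33.5% together.

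None of the 14 light-harvesting genes and none of the 8 photosystem I genes was called in leaf. In the fit of all libraries 0 genes of either class had an unadjusted limma p under 0.05, where 10395 of 23776 tested genes had. With the leaf libraries alone 1 light-harvesting gene and 0 photosystem I genes had, where 10637 of all tested genes had. The lowest limma adjusted p of a light-harvesting gene there was 0.0512. Changes ran from -0.32 to 0.54 for light-harvesting and from -0.27 to 0.33 for photosystem I. LOC_Os07g37550 was at the upper end of the antenna genes, with 2836 and 2559 FPKM in leaf salt and 1888 and 1814 FPKM in leaf control libraries. Its groups did not overlap, at a ratio of 1.46 (limma adjusted p = 0.442, and 0.165 with leaf libraries alone). LOC_Os09g17740 was at the lower end, with 3844 and 3699 FPKM with salt and 5329 and 4154 FPKM without. LOC_Os01g52240 had 1630 and 1178 FPKM with salt and 1004 and 1014 FPKM without.

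In photosystem I the ends were LOC_Os12g08770, with 3914 and 3884 FPKM with salt and 2839 and 3401 FPKM without, and LOC_Os03g56670, with 2013 and 1996 FPKM with salt and 2846 and 2051 FPKM without. The groups did not overlap in either gene, and neither change was called. Control replicates differed in both, more so in LOC_Os03g56670. Over all 35 members, 10 had both salt libraries above both leaf controls and 12 had both below. These are 28.6% and 34.3% of the members, where 29.3% and 40% of all tested genes were so placed.

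**Figure D3:**
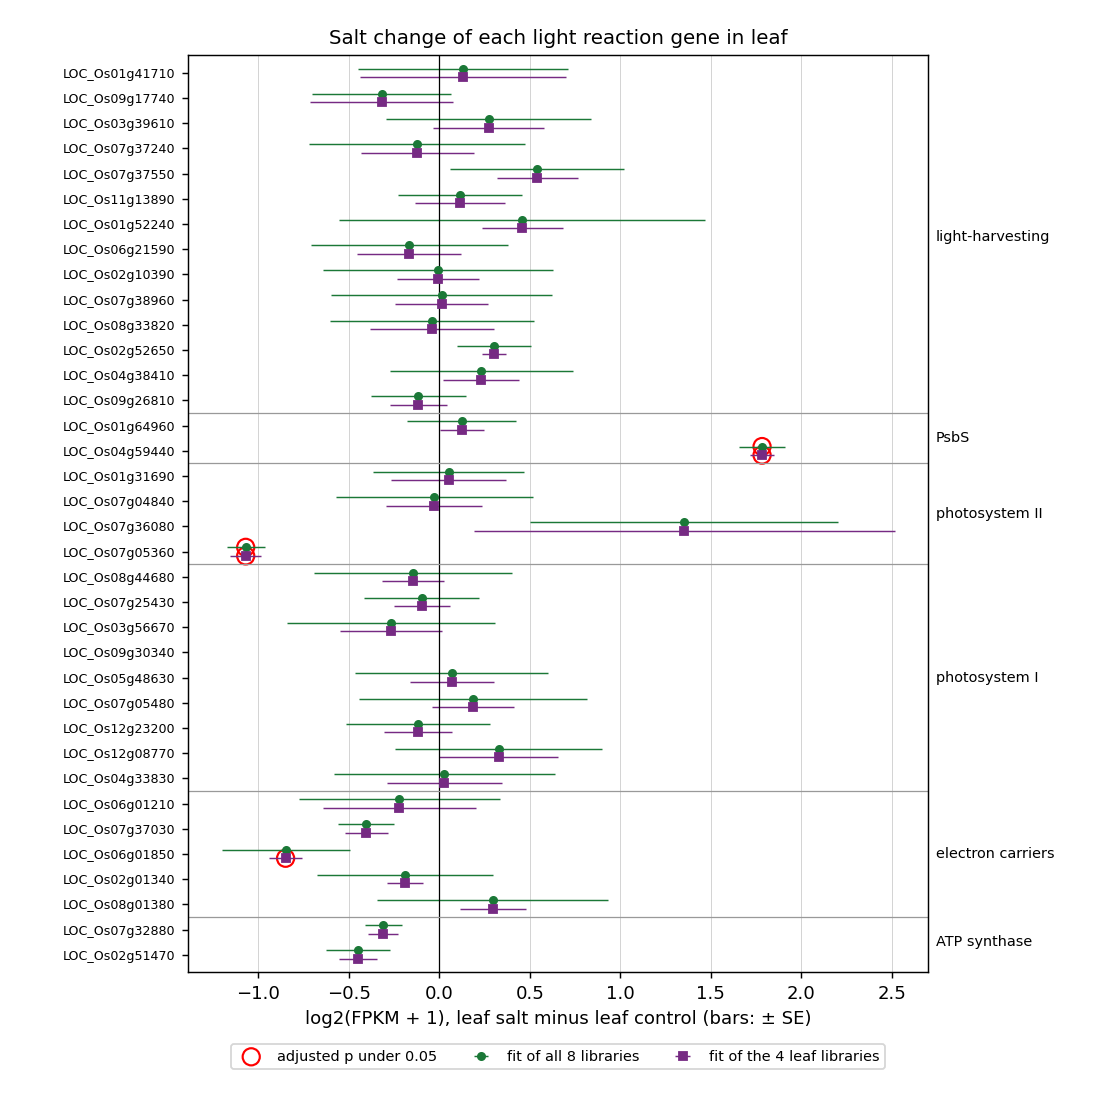
Leaf salt minus leaf control on the log2(FPKM + 1) scale for each gene, with bars for ± SE, from the fit of all 8 libraries (green circles) and from the fit of the 4 leaf libraries (purple squares), and red rings where the adjusted p is under 0.05. LOC_Os04g59440 at 1.78 and LOC_Os07g05360 at -1.07 are ringed in both fits and LOC_Os06g01850 at -0.85 in the leaf fit, and most other genes lie within 0.5 of zero.

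All 35 tested members were higher in leaf than in root without and with salt, where 28.3% and 24.5% of all tested genes were. LOC_Os09g26810 and LOC_Os02g52650 passed the filter of 1 FPKM in 2 libraries only through leaf, so their calls here add no support. In root 39.1% of all genes were higher without salt and 47.7% with salt, which brings those that differed to 67.4% and 72.2%. The median log2 difference of leaf over root was 8.09 with salt and 7.11 in controls. The control median was 7.97 without root control replicate 1 and 6.26 without root control replicate 2. It ranged in controls from 1.19 for the PsbS gene LOC_Os04g59440 (limma adjusted p = 0.000169) to 7.66 for the light-harvesting gene LOC_Os07g38960 (limma adjusted p = 3.79e-05). By class, the median difference in controls was 7.22 for light-harvesting, 7.05 for photosystem II and 7.21 for photosystem I. It was 7.15 for electron carriers, 5.02 for ATP synthase and 4.02 for the 2 PsbS genes. When root control replicate 1 was left out these medians were 8.13, 7.47, 8.25, 8.27, 5.11 and 4.20, in the same order of classes. Without root control replicate 2 they were 6.31, 6.25, 6.26, 6.48, 4.93 and 3.84. With only the control libraries of leaf and root in the fit, 34 members were called, LOC_Os07g36080 being the exception (limma adjusted p = 0.0555), where 27.6% of all genes were higher in leaf and 36.9% in root, 64.6% together.

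The 2 root control libraries differed in their content of light reaction transcripts. The 36 genes summed to 237 and 337 FPKM in root salt replicates 1 and 2, and to 933 and 326 FPKM in root control replicates 1 and 2. Root control replicate 1 was the highest root library for 34 of the 35 genes with a leaf level. The ratio of root control replicate 1 over replicate 2 had a median of 3.81 and was at least 2 for 29 genes. For these 2 counts no share over all genes is given, so they describe the members only. As a percentage of the leaf control mean, the median member stood at 0.228% and 0.368% in root salt replicates 1 and 2, and at 1.23% and 0.327% in root control replicates 1 and 2. The 4 Rubisco and Rubisco activase identifiers were also highest in root control replicate 1 among root libraries. Of the 7 chlorophyll synthesis identifiers 4 were highest there. All 7 summed to 34.6 and 39.4 FPKM in root salt libraries, against 26.4 and 18.9 FPKM in root control replicates 1 and 2. Most of the salt sum came from LOC_Os10g41780, with 23.0 and 23.2 FPKM in root salt libraries. It had 8.19 and 7.53 FPKM in root control replicates 1 and 2. Of the 4 root markers 0 were highest there. The part of this library in the root results was measured by leaving it out.

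**Figure D4:**
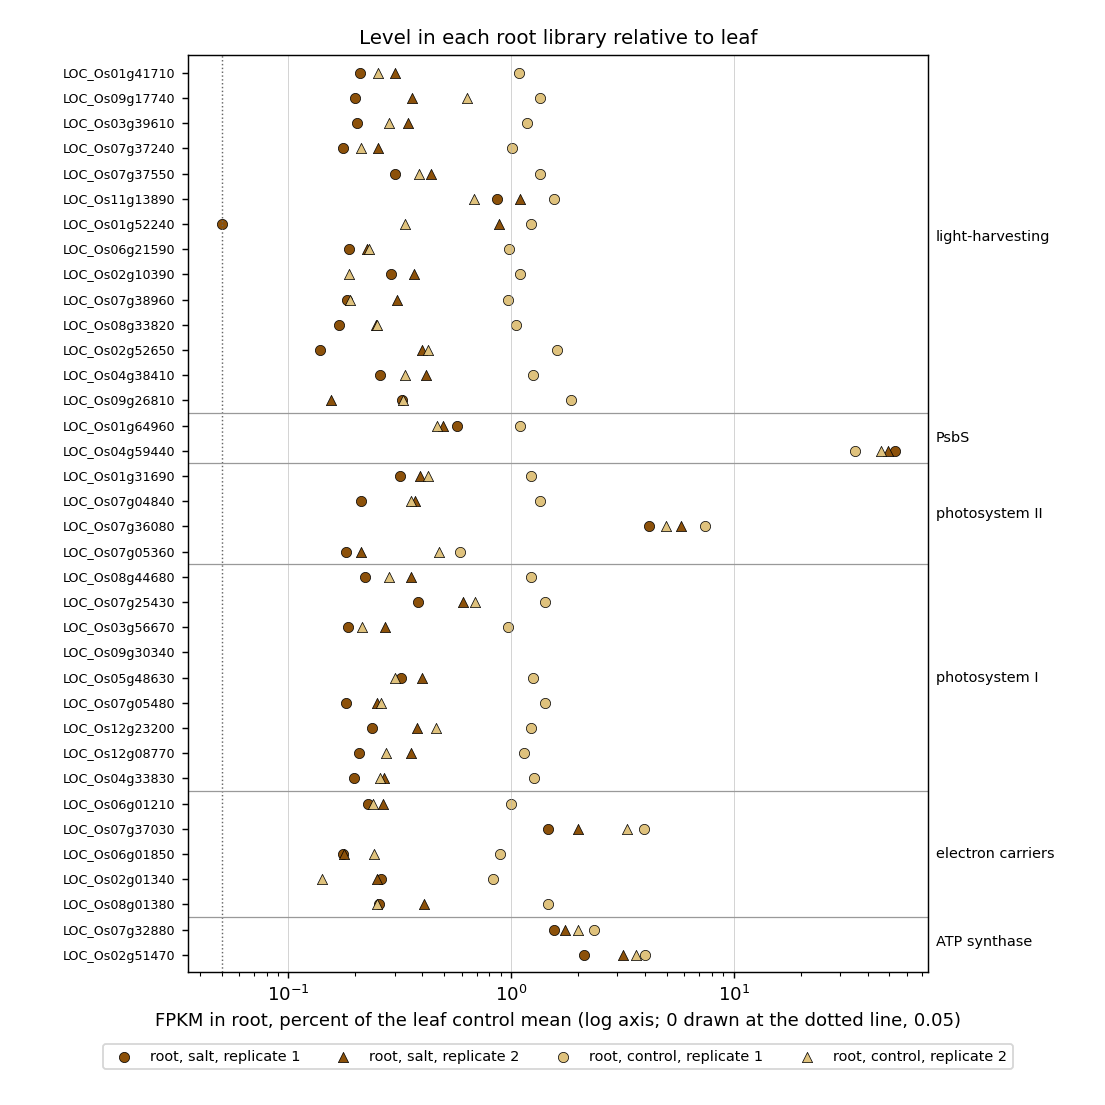
FPKM of each gene in the 4 root libraries as a percentage of its mean in leaf controls, on a log axis, with dark brown for root salt, light brown for root control, and circles and triangles for replicates 1 and 2. Most genes have root control replicate 1 near 1% and the other 3 libraries below it, while 5 genes (LOC_Os04g59440, LOC_Os07g36080, LOC_Os07g37030, LOC_Os07g32880 and LOC_Os02g51470) stand at 1% or more in all 4.

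Members differed in their root level relative to leaf. For 30 genes it was 0% to 0.861% and 0.155% to 1.10% of the leaf control level in root salt replicates 1 and 2, and 0.590% to 1.86% and 0.141% to 0.688% in root control replicates 1 and 2. The other 5 genes had 1% or more in root control replicate 2. The PsbS gene LOC_Os04g59440 stood at 52.9% and 49.5% of the leaf control level in root salt libraries and at 34.9% and 46.0% in root control libraries. The electron carrier gene LOC_Os07g37030 had 1.47% and 1.99% in root salt and 3.97% and 3.33% in root control libraries. The ATP synthase gene LOC_Os02g51470 had 2.13% and 3.19% in root salt and 4.01% and 3.63% in root control libraries, and LOC_Os07g32880 had 1.56% and 1.75% against 2.35% and 1.99%. LOC_Os07g36080 lay between 4.16% and 7.40%, relative to a leaf mean that holds its low leaf control value.

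In roots, 5 members fell with salt and 0 rose, 14.3% and 0% of the 35 tested, where 14.4% of all tested genes fell and 29.1% rose, 43.4% together. The balance over all genes depends on scaling, with 20% falling and 21% rising after scaling to the 75th percentile and 22.1% and 19.8% after quantile normalization, and under either 7 members fell. In all, 9 members had an unadjusted limma p under 0.05, where 12215 of the 23776 tested genes had. The median change of the members was -0.92, against 0.127 over all tested genes, a shift of all genes that scaling to the 75th percentile brings to 0. These numbers turn on the control library used. Without root control replicate 1, 3 members fell and 2 rose, where 11.3% and 23.2% of all genes did, and the median was -0.07. Without root control replicate 2, 31 fell and 1 rose, where 11.4% and 23.5% of all genes did, and the median was -1.75. Both salt libraries lay below root control replicate 2 for 14 genes, above it for 7 and on either side of it for 14. No share over all genes is given for this placement, so these counts are a description of the members only. With the root libraries alone in the fit 2 fell (LOC_Os07g05360 and LOC_Os07g37030) and 0 rose, where 10.2% of all genes fell and 21.7% rose, 31.9% together. Against both root controls, both salt libraries were lower for 14 members and higher for 1, or 40.0% and 2.86%, where 26.1% and 45% of all tested genes were so placed.

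LOC_Os07g05360, the photosystem II gene that fell in leaf, also fell in root. It had 0.801 and 0.926 FPKM in root salt libraries, against 2.59 and 2.08 FPKM in root control libraries, a change of -0.84 ± 0.105 (SE, limma adjusted p = 0.00114). All these root values are low, and the fall was called without root control replicate 1 as well (-0.73, limma adjusted p = 0.00577). LOC_Os07g37030, an electron carrier gene, had 16.4 and 22.2 FPKM in root salt libraries, against 44.2 and 37.1 FPKM in root control libraries. Its groups were well apart, and its change of -1.05 ± 0.154 (SE, limma adjusted p = 0.00218) was called without root control replicate 1 as well (-0.92, limma adjusted p = 0.0134). LOC_Os09g17740, a light-harvesting gene, had 9.42 and 17.04 FPKM in root salt libraries, against 63.7 and 30.05 FPKM in root control libraries. Its change of -1.71 ± 0.385 (SE, limma adjusted p = 0.0117) remained called without that library (-1.18, limma adjusted p = 0.0417), but not with the root libraries alone in the fit (limma adjusted p = 0.0793).

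The other 2 root calls did not hold without root control replicate 1. The ATP synthase gene LOC_Os07g32880 had 7.77 and 8.76 FPKM in root salt libraries, against 11.7 and 9.96 FPKM in root control libraries, a change of -0.35 (limma adjusted p = 0.0313) that came to -0.24 (limma adjusted p = 0.141). The photosystem I gene LOC_Os12g23200 had 4.45 and 7.10 FPKM in root salt libraries, against 22.9 and 8.62 FPKM in root control libraries, a change of -1.19 (limma adjusted p = 0.0488) that came to -0.53 (limma adjusted p = 0.126). The second ATP synthase gene, LOC_Os02g51470, had 10.2 and 15.3 FPKM in root salt libraries, against 19.2 and 17.4 FPKM in root control libraries, and was not called (limma adjusted p = 0.0541). The members that rose without root control replicate 1 were the light-harvesting gene LOC_Os02g10390, with 6.03 and 7.65 FPKM in root salt libraries against 3.89 FPKM in root control replicate 2, and the electron carrier gene LOC_Os02g01340, with 1.79 and 1.71 FPKM against 0.956 FPKM.

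Most of the remaining members had root control replicates that were far apart. LOC_Os01g41710, the most abundant antenna gene in leaf, had 13.5 and 19.3 FPKM in root salt libraries, with 70.0 FPKM in root control replicate 1 and 16.4 FPKM in replicate 2. LOC_Os07g05480, with the most negative photosystem I change of -1.36, had 3.62 and 4.98 FPKM in root salt libraries, with 28.5 and 5.19 FPKM in root control libraries. LOC_Os05g48630, with the least negative one of -0.74, had 6.82 and 8.48 FPKM with salt, with 26.9 and 6.43 FPKM without. Both show replicate 2 close to the salt libraries and replicate 1 well above them.

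LOC_Os07g04840, with the most negative photosystem II change of -1.21, had 5.94 and 10.4 FPKM in root salt libraries, with 38.0 and 9.96 FPKM in root control libraries. LOC_Os11g13890 had the least negative antenna change of -0.08, with 19.2 and 24.6 FPKM in root salt libraries and 34.7 and 15.2 FPKM in root control libraries. LOC_Os01g52240 was listed at 0 in root salt replicate 1, with 8.93 FPKM in root salt replicate 2 and 12.4 and 3.36 FPKM in root control libraries. None of these was called.

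The salt response differed between leaf and root for 1 member, where 32.8% of all tested genes differed, with 9.71% more positive in leaf and 23.1% more positive in root. These shares were 14.3% and 17.4% after scaling to the 75th percentile, and 16.2% and 15.2% after quantile normalization. The member was the PsbS gene LOC_Os04g59440, with a difference of 1.48 ± 0.180 (leaf minus root, SE, limma adjusted p = 0.00189). In root it had 7.88 and 7.38 FPKM in salt libraries, against 5.21 and 6.85 FPKM in control libraries. Salt values were above controls there as well, but the change of 0.30 was not called (limma adjusted p = 0.0958). The difference in response held without root control replicate 1, at 1.65 (limma adjusted p = 0.00240). For the other 34 members the difference was not called. In all, 4 members had an unadjusted limma p under 0.05, where 10436 of the 23776 tested genes had. Without root control replicate 2, 27 members were more positive in leaf and 0 in root, where 8.29% and 19.8% of all genes were, 28.1% together. Without root control replicate 1, LOC_Os04g59440 was called in that direction and LOC_Os06g01850 and LOC_Os02g01340 in the other (limma adjusted p = 0.0228 and 0.0158), where 7.63% and 19.4% of all genes were, 27% together.

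Other genes of leaf photosynthesis were set beside the members, from lists assigned in the same way as the markers. Of the 4 Rubisco and Rubisco activase identifiers, 0 were called in leaf, where 33.8% of all tested genes were. Of these identifiers 0 had an unadjusted limma p under 0.05, and their median change was -0.38. Within that list LOC_Os12g17600 had 6406 and 6861 FPKM in leaf salt libraries, against 14345 and 12412 FPKM in leaf control libraries, and LOC_Os11g47970 had 8961 and 9046 FPKM, against 4515 and 3830 FPKM. These 2 genes moved in opposite directions without overlap of their groups, by -1.01 and 1.11, and neither was called (limma adjusted p = 0.260 and 0.304). Both were called when root control replicate 1 was left out (limma adjusted p = 0.00474 each), as was LOC_Os12g19470 with a change of -0.59 (limma adjusted p = 0.0119). The same 3 identifiers were called without root control replicate 2, 1 higher and 2 lower. With the leaf libraries alone in the fit 0 of the 4 were called, where 30% of all genes were. There 1 of the 4 had an unadjusted limma p under 0.05. Of the 7 chlorophyll synthesis identifiers, 2 rose in leaf and 0 fell, where 14.8% and 18.9% of all tested genes did. With the leaf libraries alone in the fit 2 rose and 1 fell, where 13.2% and 16.9% of all genes did. LOC_Os04g58200 had 294 and 284 FPKM in leaf salt libraries, against 66.6 and 64.3 FPKM in leaf control libraries (log2 change 2.13, limma adjusted p = 0.00242). LOC_Os10g41780 had 186 and 201 FPKM, against 120 and 106 FPKM (0.78, limma adjusted p = 0.00120).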

How the data were processed

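Leaf and root RNA of rice seedlings was sequenced in 8 libraries. The deposited values are FPKM per gene with lower and upper confidence bounds, in the Cufflinks gene tracking format per the file headers. The submitters' processing notes name Cufflinks 2.2.1, TopHat2 2.0.13 and Cuffdiff, the last without a version. Build, annotation and strandedness: not given in the sources used here, so values of overlapping or near-identical genes, light-harvesting genes among them, are uncertain. Of 55806 entries on chromosomes, 9 from 4 identifiers standing at several loci were left out, and 185 unplaced entries listed at 0 in 3 libraries were dropped.

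Values were taken as log2(FPKM + 1) without further scaling, which understates the change of low genes, and fitted with limma 3.58.1 (R 4.3.3) as 4 group means with a variance trend and Benjamini-Hochberg adjustment over 23776 genes. The fit was tested on simulated data. Figures and sums were made in Python 3.11.15. Implied fragments in root are the square of 2 × FPKM divided by the distance to the upper bound. Bounds cover counting and assignment error only.

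Replicate numbers are shared by the groups. The deviations of same-numbered libraries correlated between -0.021 and 0.213 over 6 pairs of groups. The highest value, between root salt and root control, was above the threshold of 0.1, and the others were below it. The main fit did not take same-numbered libraries as pairs. Alternatives were pseudocounts of 0.1 and 5, no filter, scaling to the 75th percentile, quantile normalization, only the groups compared, a replicate block, no variance trend, and leaving out each library. All 36 members may be named, with values in every library for the highest and lowest in leaf controls and the extreme changes of each class. The members and lists were chosen with earlier results of these data known.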

Additional observations from a re-analysis of the deposited data

Results flagged for a closer look

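The salt response of the PsbS gene LOC_Os04g59440 differed between tissues, by a tested difference of 1.48 on the log2 scale (leaf minus root, limma adjusted p = 0.00189). It had 52.3 and 55.2 FPKM in leaf salt and 15.5 and 14.3 FPKM in leaf control libraries, and 7.88 and 7.38 FPKM in root salt and 5.21 and 6.85 FPKM in root control libraries. Both salt libraries were higher in both tissues. Over the libraries left out, the difference ran from 1.31 to 1.65.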

How the results depend on the processing

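Over the 8 libraries left out, members that fell in root ran from 2 (without root salt replicate 1) to 31 (without root control replicate 2) and those that rose from 0 to 2, where 9.49% to 13.4% of all genes fell and 22.3% to 27.3% rose. Members more positive in leaf ran from 1 to 27 and members more positive in root from 0 to 2, where 6.33% to 9.06% and 16.0% to 19.8% of all genes were. In leaf, those that fell ran from 1 to 3 and those that rose from 1 to 2, where 11.9% to 19.0% of all genes fell and 9.47% to 14.8% rose. A lone library left in a group is assumed to vary like the other groups. With a pseudocount of 5, 2 rose and 3 fell in leaf, 3 fell in root, and 2 were more positive in leaf and 1 in root, where 14.8% and 18.5% of all genes did so in leaf, 14.4% fell in root, and 11% and 24.8% differed. With the groups compared alone, 2 fell in leaf and 2 in root, where 16.9% and 10.2% of all genes did. Under both scalings 2 were more positive in leaf. After quantile normalization the log2 ratio of summed FPKM in leaf was 0.15 for photosystem I and -0.42 for electron carriers, against 0.03 and -0.18 as deposited. The cause of these shifts was not tested. With a replicate block, 1 rose and 1 fell in leaf and 4 fell in root, where 14.2% and 18.5% of all genes did in leaf and 14% fell in root. There LOC_Os12g23200 lost its call (limma adjusted p = 0.0614) and no other called member did. No member change called in the main fit reversed its sign under these alternatives. Changes not called in the main fit could reverse. In root those of LOC_Os02g10390 and LOC_Os02g01340 were -1.61 and -1.28 without root control replicate 2, and positive without root control replicate 1. Depth limits the root values, where a median member rests on 94.6 implied fragments.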
